A study of Mus musculus with 16 samples.

Results

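The imprinted cluster of distal mouse chromosome 7 was described through 10 of its genes, H19, Igf2, Ascl2, Cd81, Tssc4, Kcnq1, Kcnq1ot1, Cdkn1c, Slc22a18 and Phlda2. They were taken by gene name from a table of 22552 genes, and all 10 were found in it. A total of 8 of them had a mean of at least 0.5 FPKM (fragments scaled by transcript length and by the mapped reads of the library) over the 16 cell lines and entered the test across 13185 genes. Ascl2 and Kcnq1 were below that level and are described by their values and by exact permutation tests.

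An imprinted gene is expressed mainly from the chromosome inherited from 1 parent. In the H19-Igf2 domain, an imprinting control region upstream of H19 binds the insulator protein CTCF on the maternal chromosome, where H19 is expressed, and is methylated on the paternal chromosome, where Igf2 is expressed. In the neighbouring Kcnq1 domain, the promoter of the long non-coding RNA Kcnq1ot1 lies inside Kcnq1, is active on the paternal chromosome, and the RNA silences Cdkn1c, Phlda2, Slc22a18 and other genes there. Both domains control growth of the embryo and placenta. The FPKM values add up both parental copies, so they give the level of a gene and not its imprint.

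Every line traced back to all-iPSC mice, that is, mice made entirely from 1 induced pluripotent stem cell (iPSC) line that carried Rosa26-M2rtTA and inducible reprogramming factors, so the AN and AI lines shared the same insertions. Adipocyte progenitor cells (APC) of these mice served as nuclear donors for the AN lines (embryonic stem cells made by nuclear transfer, ntESCs) and as starting cells for the AI lines (iPSCs induced with doxycycline). Tetraploid complementation, which asks whether a line can form a whole animal by itself, separated fully (F) from partially (P) reprogrammed lines. Of the 9 AN lines sequenced, 4 were AN F, namely AN20, AN15, AN9 and AN1, and 5 were AN P, namely AN7, AN6, AN5, AN3 and AN2. Of the 7 AI lines, 4 were AI F, namely GS32, AI10, AI7 and AI3, and 3 were AI P, namely GS9, GS4 and AI9. Each line gave 1 library of total RNA and counts as 1 replicate. The sample labels give the strain as 129-M2rtTA and name the method and the line, and the F or P status was taken from the study's text by line name. The source entries of GS9 and GS32 name GS4, against their titles, and the titles were followed here. GS4, GS9 and GS32 had been identified earlier, whereas the other 4 AI lines were newly derived. GS4 was at passage 17 and GS32 at passage 13, and the other lines were at passages 5 to 7.

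The sequences that define the control of the cluster are shown first, as the letters behind the background given above. On mm9, the build of the deposited values, H19 lies on the minus strand at chr7:149761434-149764048. The core CCGCNNGGNGGCAG, a form of the CTCF recognition sequence, was searched on both strands in the 10000 bases upstream of the H19 start site and was found 4 times, each time on the minus strand. The 4 matches are shown with their flanks, and capitals mark the core.
match 1, chr7:149766201-149766240: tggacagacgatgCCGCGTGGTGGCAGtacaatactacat
match 2, chr7:149766656-149766695: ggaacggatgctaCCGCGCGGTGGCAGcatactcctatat
match 3, chr7:149767682-149767721: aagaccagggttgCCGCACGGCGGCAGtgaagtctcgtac
match 4, chr7:149767926-149767965: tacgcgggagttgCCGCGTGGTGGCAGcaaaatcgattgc
The nearest core begins 2166 bases and the farthest ends 3904 bases upstream of the start site. Of 14188 windows of 10000 bases on chromosome 7, 52 (0.367%) held at least 1 match and 1 held 3 or more, which was the window with these 4 matches. Matches 1 and 4 have the same core. The share counts this pattern only and does not describe CTCF sites in general. A match is a description of letters and not a measurement of binding.

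The promoter of Kcnq1ot1 is shown because the RNA and the genes it silences were measured in the same lines. The RefSeq sequence (GRCm38.p6, chr7:143296498-143296797, minus strand) runs from 250 bases before to 50 bases after the start, and capitals mark the letters CCAAT, the core bound by the transcription factor NF-Y.
Kcnq1ot1 promoter: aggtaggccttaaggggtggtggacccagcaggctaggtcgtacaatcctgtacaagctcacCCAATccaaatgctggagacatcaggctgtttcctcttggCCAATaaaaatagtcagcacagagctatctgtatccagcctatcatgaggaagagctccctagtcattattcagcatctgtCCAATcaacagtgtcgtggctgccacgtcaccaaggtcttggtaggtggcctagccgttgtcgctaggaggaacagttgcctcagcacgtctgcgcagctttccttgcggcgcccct
CCAAT or its reverse complement ATTGG occurred 3 times in this promoter, and also 3 times in that of Ascl2. Of 32851 RefSeq promoters of 300 bases, 37.4% held at least 1 such match and 3.37% held 3 or more. RefSeq promoters were found for 7 of the 10 genes.

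H19 and Igf2 each contain a microRNA gene, and these are shown because they are products of the 2 transcripts described most closely. Capitals mark the seed (bases 2 to 8).
miR-675-5p, in H19: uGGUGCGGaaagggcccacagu
miR-675-3p, in H19: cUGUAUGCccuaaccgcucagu
miR-483-5p, in Igf2: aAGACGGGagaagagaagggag
miR-483-3p, in Igf2: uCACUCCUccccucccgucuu
The 4 seeds differ from each other, and each occurs in 1 of the 1738 mature mouse microRNAs of the RefSeq table. Mir483 was listed at 0 in every line and Mir675 at no more than 5.41e-05 FPKM, so the level of these microRNAs is not given by this table.

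The level of the 10 genes ran from that of abundant transcripts to the lower end of the table. Over the 16 lines, H19 had a mean of 199 ± 70.7 FPKM (SD, n = 16), Cd81 128 ± 22.1, Igf2 101 ± 40.9, Phlda2 30.9 ± 12.8, Cdkn1c 21.5 ± 9.99 and Tssc4 20.7 ± 3.56 FPKM. Kcnq1ot1 followed with 1.61 ± 0.486 FPKM, Slc22a18 with 0.654 ± 0.196, Ascl2 with 0.450 ± 0.179 and Kcnq1 with 0.0223 ± 0.0150 FPKM. H19, the untranslated RNA, was the 541st gene of the table by mean level, within the top 2.40%, whereas Kcnq1, a potassium channel subunit of heart and epithelia, was the 17396th. Neighbours in this order that did not differ beyond the larger of their SDs were Cd81 and Igf2, Phlda2 and Cdkn1c, and Cdkn1c and Tssc4. Cdkn1c was above Tssc4 in 8 of 16 lines, whereas Cd81 was above Igf2 and Phlda2 above Cdkn1c in 15 of 16. H19 was above Cd81 in 15 of 16 lines, the exception being GS4.

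**Figure D1:**
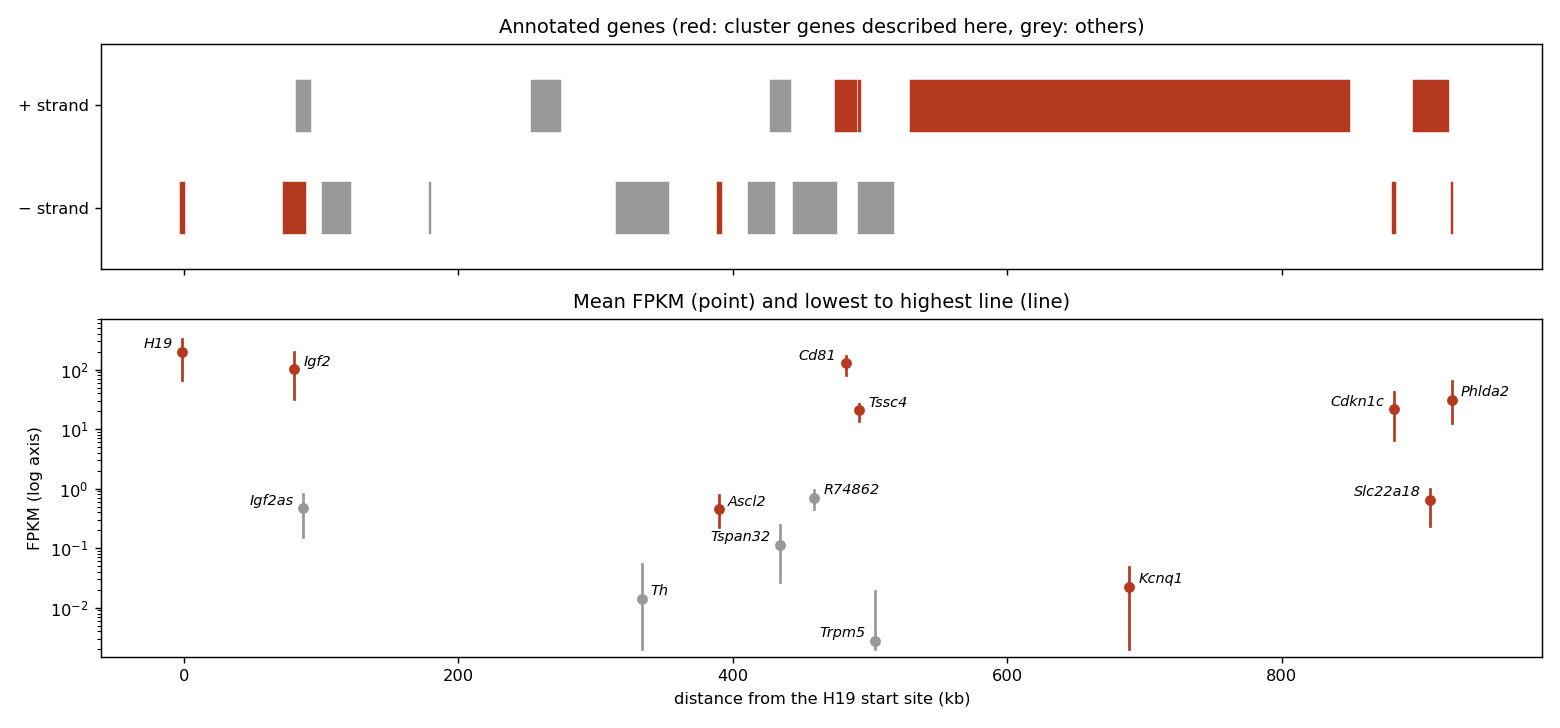
Genes of the cluster by distance from the H19 start site in kb. The upper panel gives each annotated gene on its strand, with the described genes in red and others in grey, and the lower panel gives the mean FPKM over 16 lines (point) and the lowest to highest line on a log axis, where values of 0 fall below the axis. H19, Igf2 and Cd81 lie at or above 101 FPKM, whereas Kcnq1, the longest gene, lies at 0.0223 FPKM. Kcnq1ot1 is not drawn.

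The 9 members in the annotation (GENCODE vM1 on mm9) span 927 kb. Igf2 lies at chr7:149836673-149852721 on the minus strand, Ascl2 at chr7:150152727-150155169 on the minus strand, Cd81 at chr7:150238644-150253839 on the plus strand and Tssc4 at chr7:150255154-150256998 on the plus strand. Kcnq1 lies at chr7:150293159-150612955 on the plus strand, Cdkn1c at chr7:150644255-150646955 on the minus strand, Slc22a18 at chr7:150659626-150685239 on the plus strand and Phlda2 at chr7:150687450-150688446 on the minus strand. Some exons overlap those of a gene on the other strand, with 98 of 5493 exonic bases of Igf2 shared with Igf2as, 30 of 2270 of Cd81 with R74862 and 220 of 1760 of Tssc4 with Trpm5. Strand use in the counting is not given in the sources used here, so reads of such partners, and of Kcnq1ot1 within Kcnq1, cannot be told apart.

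Between H19 and Phlda2 the table held 8 other annotated genes, which were at low levels in these cells. R74862, an RNA starting beside Cd81, had a mean of 0.710 FPKM (range 0.451 to 0.944) and Igf2as, antisense to Igf2, 0.469 FPKM (range 0.156 to 0.828). Tspan32 had 0.114 FPKM. Th, tyrosine hydroxylase of catecholamine synthesis, had 0.0141 FPKM and was listed at 0 in 10 lines, and Trpm5, a taste channel, had 0.00276 FPKM and was listed at 0 in 12. Ins2, insulin, and Mir483 were listed at 0 in all 16 lines. The low genes thus stood between neighbours at levels of up to 199 FPKM.

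H19 was on average lower in AN F than in AN P, while AI F lay above AI P, but neither difference passed the test across all genes. In AN F it was at 249 FPKM in AN1, 155 in AN15, 111 in AN9 and 106 in AN20. In AN P it was at 327 FPKM in AN6, 233 in AN3, 230 in AN2, 209 in AN7 and 193 in AN5. Hence 3 of 4 AN F lines lay below every AN P line, and AN1 lay inside the AN P range. The means were 155 ± 65.9 FPKM (SD, n = 4) and 239 ± 52.4 FPKM (SD, n = 5). On the log2(FPKM + 1) scale the difference was -0.68 (SE 0.25, 95% interval -1.24 to -0.11; limma, adjusted p = 0.636), and the exact permutation p was 0.0794, where the smallest possible is 0.0159.

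In AI F, H19 was at 304 FPKM in GS32, 260 in AI10, 196 in AI7 and 193 in AI3. In AI P it was at 209 FPKM in GS9, 145 in AI9 and 65.7 in GS4, the lowest value of all lines. GS9 lay inside the AI F range, and AI9 and GS4 lay below it. The means were 238 ± 53.4 FPKM (SD, n = 4) and 140 ± 71.8 FPKM (SD, n = 3), a difference of 0.89 on the log2 scale (SE 0.38, 95% interval -0.01 to 1.78; limma, adjusted p = 0.521). The exact permutation p was 0.171, and with 4 lines against 3 it cannot go below 0.0571. Without GS4 the H19 difference was 0.42.

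The F to P difference of H19 itself differed between AI and AN by 1.56 on the log2 scale (SE 0.46, 95% interval 0.58 to 2.55). The exact permutation p over all 4410 exchanges of F and P labels within AN and within AI was 0.00771. Adjusted over the 40 exact tests of the members, that exact p was 0.308, and in limma the adjusted p over 13185 genes was 0.290. Under the other settings tried, the H19 value ranged from 1.18, with the average level of the fibroblast list as a covariate, to 1.66, and leaving out each line gave 1.10 to 1.93, with 0.0669 as the lowest adjusted p.

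**Figure D2:**
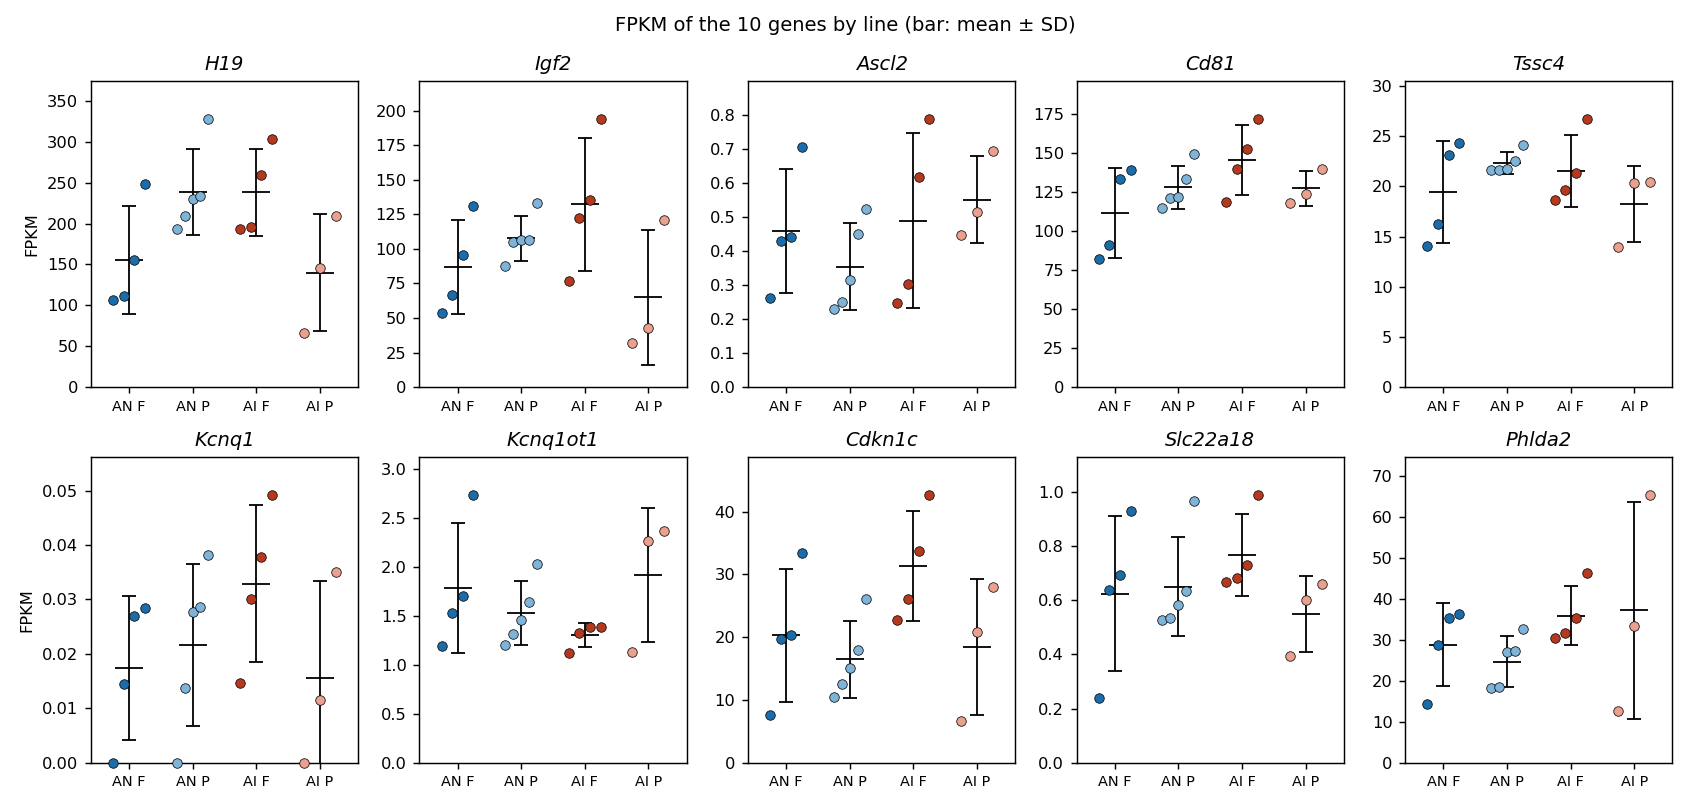
FPKM of the 10 genes in each line, with a point per line on linear axes from 0 and bars for the mean ± SD of AN F (n = 4), AN P (n = 5), AI F (n = 4) and AI P (n = 3). The means of H19 and Igf2 are lower in AN F than in AN P, and AI F is above AI P, with overlapping groups, and Slc22a18 is the gene whose AI F lines (0.667 to 0.989 FPKM) all lie above the AI P lines (0.393 to 0.661 FPKM).

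Igf2, the growth factor of the cluster, had the same direction as H19 in both comparisons. In AN F it was at 131 FPKM in AN1, 95.4 in AN15, 66.9 in AN20 and 53.8 in AN9. In AN P it was at 133 FPKM in AN3, 107 in AN2, 106 in AN7, 105 in AN6 and 87.5 in AN5. AN9 and AN20 lay below every AN P line, and AN1 and AN15 lay inside the AN P range. The difference was -0.38 on the log2 scale (SE 0.24, 95% interval -0.91 to 0.15; limma, adjusted p = 0.636), and the exact permutation p was 0.206.

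In AI F, Igf2 was at 194 FPKM in GS32, 136 in AI10, 123 in AI3 and 76.7 in AI7. In AI P it was at 121 FPKM in AI9, 42.4 in GS9 and 31.6 in GS4. GS9 and GS4 had the 2 lowest values of all 16 lines, whereas the AI9 value fell among those of AI F. The difference of 1.18 on the log2 scale (SE 0.49, 95% interval 0.04 to 2.32) had a limma adjusted p of 0.521 and an exact permutation p of 0.114. Among the newly derived lines alone, 3 AI F lines against AI9, the Igf2 difference was -0.16. The low AI P values were thus those of GS4 and GS9, which were identified earlier, and AI9 is the only newly derived AI P line.

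The difference between the AI and the AN effect on Igf2 was 1.56 (SE 0.53, 95% interval 0.43 to 2.69; limma, adjusted p = 0.290), with an exact permutation p of 0.0431. Adjusted over the 40 exact tests of the members, that exact p was 0.457. Without AI9 this Igf2 difference was 2.12 and its limma adjusted p was 0.0309, while 651 of 13185 genes passed the threshold in the same fit. Without the earlier AI lines GS4, GS9 and GS32 it was 0.22 for Igf2 and 1.24 for H19, and with derivation as a term it was 1.41 and 1.62. With the mean of the fibroblast markers described next as a covariate it was 0.28 for Igf2.

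**Figure D3:**
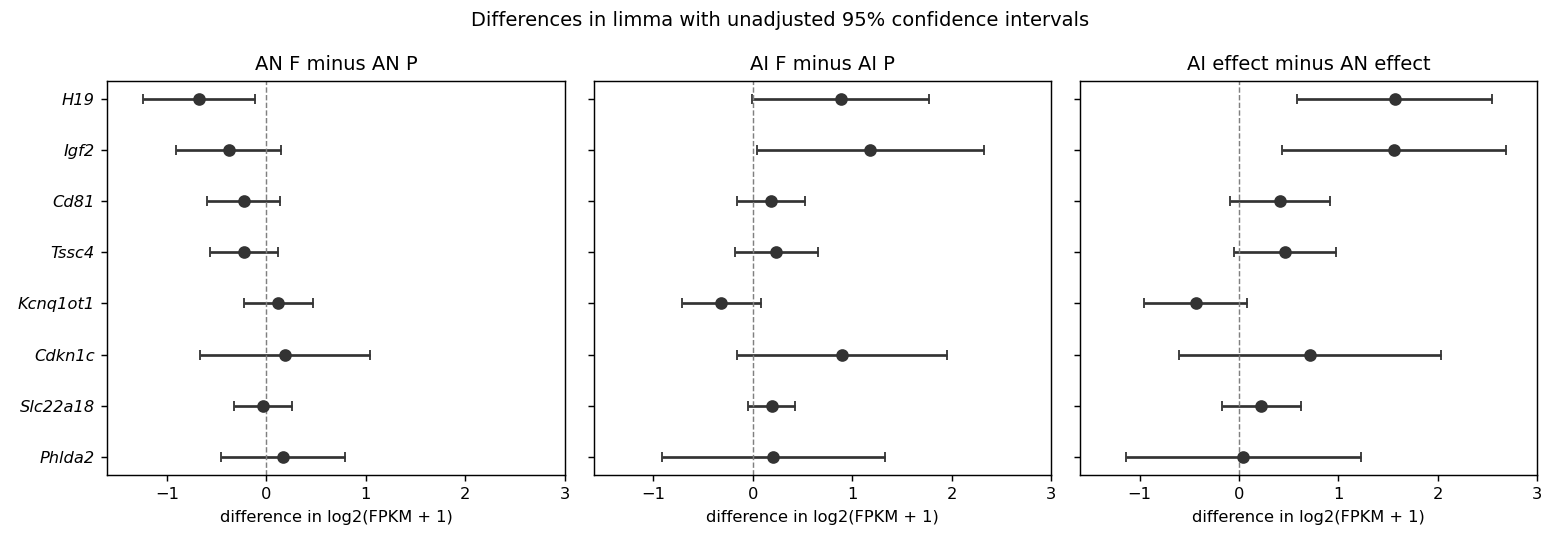
Differences in log2(FPKM + 1) with unadjusted 95% confidence intervals from limma for the 8 genes tested. The left panel gives AN F minus AN P, the middle panel AI F minus AI P and the right panel the AI difference minus the AN difference. The H19 interval excludes 0 on the left, the Igf2 interval in the middle, and both on the right (1.56 each), and no gene passed the adjusted threshold.

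Igf2 moved across the lines with genes of fibroblasts. The list held 20 fibroblast markers, among them Col1a1, Vim and Thy1, and the ntESC lines had been grown out on feeder cells of embryonic fibroblasts. The mean log2(FPKM + 1) of the 20 markers and Igf2 had a Pearson r of 0.95 and a Spearman rho of 0.99 over 16 lines (permutation p = 2e-05 for both, the smallest they can give, adjusted p = 0.0002 over 10 relations). Within the 9 AN lines r was 0.94, within the 7 AI lines it was 0.95, and without GS4 and GS9, the lines farthest from the median, it was 0.96 over 14 lines. The list mean was 4.92 to 6.01 in AI F, and in AI P it was 5.61 for AI9, 4.40 for GS4 and 3.98 for GS9. In AN it was 4.72 to 5.66 in AN F and 5.07 to 5.82 in AN P.

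All 20 fibroblast markers had a positive AI F minus AI P difference, with a median of 1.04 on the log2 scale against -0.04 over all genes tested, and 0 passed the adjusted threshold. At an unadjusted p under 0.05 were Vim, a filament protein of mesenchymal cells (1.06, SE 0.37), Thy1 (1.05, SE 0.40), Col6a2 (1.03, SE 0.37) and Twist1 (0.49, SE 0.19). These are 4 of 20, against 7.77% of all tested genes. The summed level of the 20 markers was 1860 to 3366 FPKM in AI F and 927 to 2933 FPKM in AI P, and no marker was at 0 in any line, with Col1a1 at 27.4 FPKM or more in every line. With the list mean as a covariate, the Igf2 difference was 0.17 in AI and -0.11 in AN, against 1.18 and -0.38 without it. For H19 the covariate left 0.76 in AI and -0.48 in AN. For the difference between the AI and AN effects, 15 of 20 markers had an unadjusted p under 0.05, all positive, against 16.6% of all tested genes. These were Col1a1 (1.58), Acta2 (1.56), Thy1 (1.51), Loxl1 (1.5), Fbln2 (1.48), Col5a1 (1.47), Col1a2 (1.45), Col6a2 (1.4), Col6a1 (1.31), Fn1 (1.31), Vim (1.27), Tagln (1.26), Prrx1 (1.11), Twist2 (0.82) and Twist1 (0.56). The cells that hold the Igf2 and marker RNA were not separated, and in bulk RNA fewer cells of a type and less RNA per cell cannot be told apart.

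H19 also had a positive r with the fibroblast markers. Its r with the marker mean was 0.56 and its rho 0.61 over 16 lines (permutation p = 0.0350 and 0.0134, adjusted p = 0.0583 and 0.0368), with 0.70 in AN, 0.51 in AI and 0.63 without GS4 and GS9. The r of H19 was 0.43 without GS4 alone. H19 with Igf2 had an r of 0.74 and a rho of 0.67 (permutation p = 0.00234 and 0.00590, adjusted p = 0.0117 and 0.0295), with 0.84 in AN and 0.72 in AI. Without AN20 and GS4, the lines farthest from the H19 median, r was 0.53 over 14 lines, and without GS4 and GS32 it was -0.07 over the other 5 AI lines, so the relation within AI rests on those lines. Within AN it was 0.45 without AN9 and AN20, over 7 lines. The difference between these correlations was not tested.

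**Figure D4:**
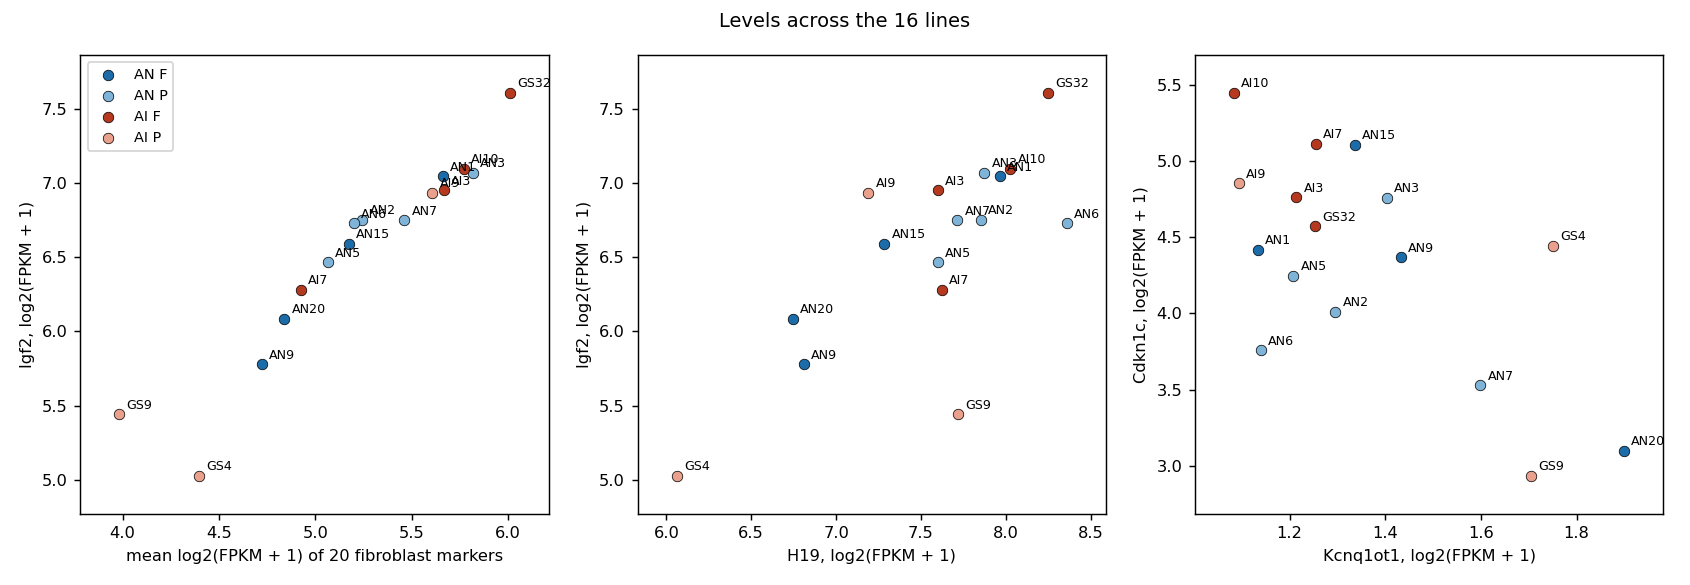
Levels on the log2(FPKM + 1) scale in the 16 lines, coloured by group and labelled by line. Igf2 rises with the mean of 20 fibroblast markers (left, r = 0.95) and with H19 (middle, r = 0.74), where GS9 and AN6 lie to the lower right, and Cdkn1c falls with Kcnq1ot1 (right, r = -0.65), with AN20 and GS9 at the lower end.

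The ratio of H19 to Igf2 FPKM was described after the values were seen and was not tested. Its median over the 16 lines was 1.94. GS9 had the highest ratio, 4.93, and AN6 the next, 3.12, whereas the other 14 lines were between 1.20 in AI9 and 2.56 in AI7. In GS9 the high ratio came with 42.4 FPKM of Igf2 beside an H19 level of 209 FPKM, and in AN6 with 327 FPKM of H19, the highest of all lines. The mean ratio was 1.79 ± 0.229 (SD, n = 4) for AN F and 2.24 ± 0.525 (SD, n = 5) for AN P. It was 1.90 ± 0.464 (SD, n = 4) for AI F and 2.73 ± 1.95 (SD, n = 3) for AI P, and the ranges of all groups overlapped.

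Cdkn1c, the cyclin-dependent kinase inhibitor p57Kip2 that arrests the cell cycle, varied most of the tested members. Its SD over the 16 lines was 0.72 on the log2 scale, above that of 97.6% of the tested genes, whose median SD was 0.21. In AN F it was at 33.5 FPKM in AN15, 20.4 in AN1, 19.7 in AN9 and 7.57 in AN20. In AN P it was at 26.1 FPKM in AN3, 18.0 in AN5, 15.1 in AN2, 12.5 in AN6 and 10.5 in AN7. The AN F lines thus surrounded the AN P lines on both sides, and the difference was 0.19 (SE 0.38, 95% interval -0.67 to 1.04; limma, adjusted p = 0.868).

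In AI F, Cdkn1c was at 42.6 FPKM in AI10, 33.7 in AI7, 26.1 in AI3 and 22.8 in GS32. In AI P it was at 27.9 FPKM in AI9, 20.8 in GS4 and 6.65 in GS9, the lowest of all lines. AI9 lay inside the AI F range. The difference was 0.90 (SE 0.45, 95% interval -0.16 to 1.96; limma, adjusted p = 0.521), with an exact permutation p of 0.171, and without GS9 it was 0.33. Among the newly derived AI lines the Cdkn1c difference was 0.25, and with the fibroblast marker mean as a covariate it was 0.35. Cdkn1c had an r of 0.53 and a rho of 0.45 with that mean over 16 lines (permutation p = 0.0420 and 0.0851, adjusted p = 0.0600 and 0.122). Its r was 0.71 within AI, where it was -0.35 without GS4 and GS9, and 0.32 within AN, so the relation within AI rests on those lines.

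Phlda2, a pleckstrin homology domain protein that restrains placental growth, had its highest and lowest values in 1 group. GS4, of AI P, was at 65.5 FPKM, GS9 at 12.8 and AI9 at 33.5. In AI F it was at 46.4 FPKM in AI7, 35.3 in GS32, 31.8 in AI10 and 30.6 in AI3. The AI F lines lay between GS9 and GS4, and the difference of 0.21 (SE 0.48, 95% interval -0.91 to 1.33; limma, adjusted p = 0.839) changed to -0.39 without GS9 and to 0.75 without GS4. In AN F, Phlda2 was at 36.5 FPKM in AN15, 35.4 in AN9, 28.9 in AN1 and 14.4 in AN20, and in AN P it ranged from 18.2 in AN6 to 32.7 in AN3. Its AN difference was 0.17 (SE 0.28, 95% interval -0.46 to 0.79; adjusted p = 0.833).

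Slc22a18, a membrane transporter between Cdkn1c and Phlda2, was the only tested member whose groups did not overlap in a comparison. In AI F it was at 0.989 FPKM in AI10, 0.731 in AI7, 0.683 in GS32 and 0.667 in AI3. In AI P it was at 0.661 FPKM in AI9, 0.599 in GS4 and 0.393 in GS9. The gap between AI3 and AI9 was small, the difference was 0.19 (SE 0.10, 95% interval -0.05 to 0.43; limma, adjusted p = 0.521), and the exact permutation p was 0.0571, the smallest this design allows. In AN F, Slc22a18 was at 0.928 FPKM in AN15, 0.693 in AN1, 0.637 in AN9 and 0.238 in AN20, and in AN P at 0.967 in AN3 and 0.527 to 0.633 in the other lines. The AN groups overlapped, with a difference of -0.03 (SE 0.13).

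Of the genes of the Kcnq1 domain, Cdkn1c had an r of 0.87 with Slc22a18, 0.79 with Phlda2 and 0.76 with Kcnq1 across the 16 lines. AN20 and GS9 were the 2 lowest lines for Cdkn1c and Slc22a18, and for Phlda2 too, and Kcnq1 was listed at 0 in both. Kcnq1 was at no more than 0.0492 FPKM in any line, so its r rests on few reads. Without AN20 and GS9, left out after the values were seen, the r of Cdkn1c was 0.77 with Slc22a18, 0.59 with Phlda2 and 0.60 with Kcnq1, and that of Slc22a18 with Phlda2 was 0.23, against 0.60 with them. H19 and Cdkn1c, by contrast, had an r of 0.07 (permutation p = 0.785) and a rho of 0.02. Apart from the tested relation of H19 with Cdkn1c, these are descriptions over 16 lines.

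**Figure D5:**
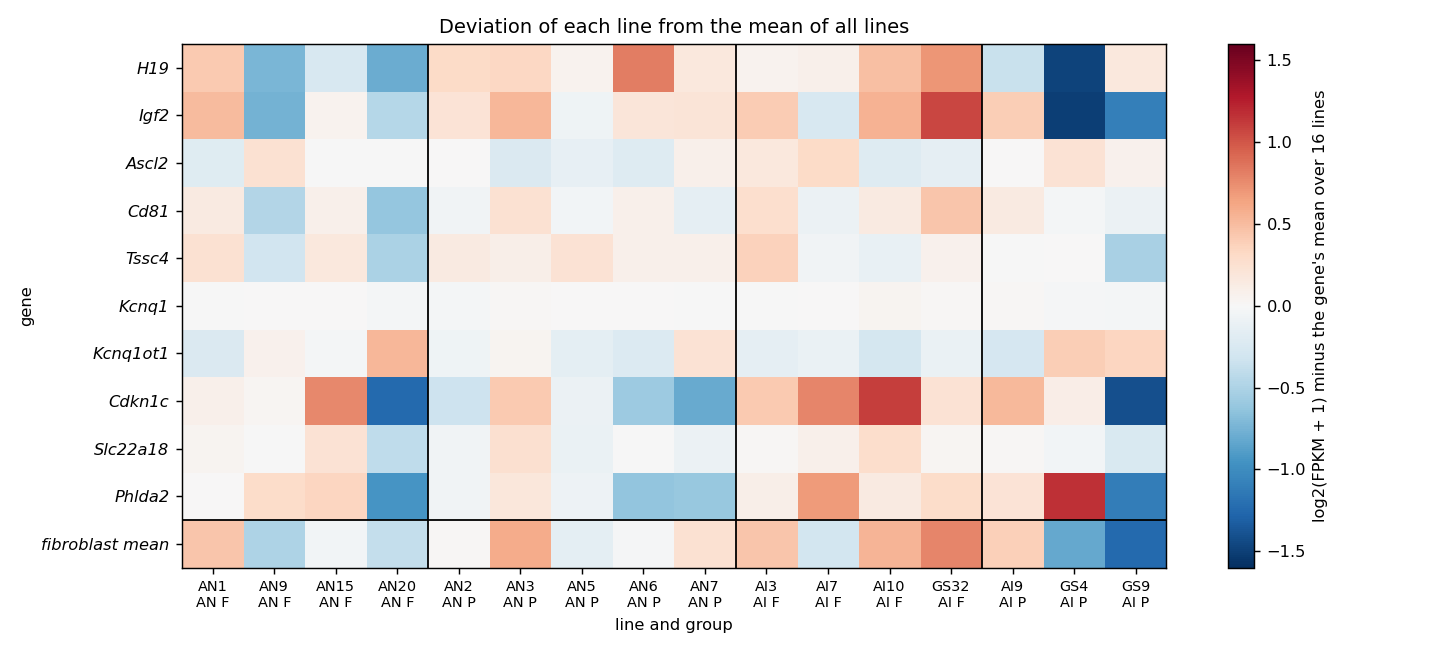
Deviation of each line from the mean of all 16 lines on the log2(FPKM + 1) scale, for the 10 genes and for the mean of 20 fibroblast markers (bottom row), with lines ordered by group. AN20 and GS9 are low for Cdkn1c and Phlda2 and high for Kcnq1ot1, GS4 is low for H19 and Igf2 and high for Phlda2, and the pattern of Igf2 resembles that of the fibroblast markers.

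Kcnq1ot1, the silencing RNA, was highest in AN20, GS4 and GS9. In AN F it was at 2.73 FPKM in AN20, 1.70 in AN9, 1.52 in AN15 and 1.19 in AN1. In AN P it was at 2.03 FPKM in AN7, 1.64 in AN3, 1.45 in AN2, 1.31 in AN5 and 1.20 in AN6. The AN groups overlapped, with a difference of 0.12 (SE 0.16, 95% interval -0.23 to 0.47; limma, adjusted p = 0.771).

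In AI P, Kcnq1ot1 was at 2.36 FPKM in GS4, 2.26 in GS9 and 1.13 in AI9. In AI F it was at 1.39 FPKM in AI7, 1.38 in GS32, 1.32 in AI3 and 1.12 in AI10. GS4 and GS9 lay above every AI F line and AI9 lay among them. The difference was -0.31 (SE 0.17, 95% interval -0.71 to 0.09; limma, adjusted p = 0.521), the exact permutation p was 0.229, and among the newly derived AI lines it was 0.09.

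Kcnq1ot1 ran opposite to Cdkn1c over the 16 lines, with an r of -0.65 and a rho of -0.51 (permutation p = 0.0101 and 0.0454, adjusted p = 0.0202 and 0.0832). Its r was -0.64 with Kcnq1 and -0.64 with Slc22a18 (permutation, adjusted p = 0.0202 for each) and -0.28 with Phlda2 (permutation p = 0.292). The rho was -0.60 with Kcnq1 (adjusted p = 0.0368) and -0.50 with Slc22a18 (adjusted p = 0.0832), so for Cdkn1c and Slc22a18 the call was lost by rank. Kcnq1 was at no more than 0.0492 FPKM in any line, so its relation rests on few reads. Without AN20 and GS4, the lines farthest from the Kcnq1ot1 median, its r was -0.65 with Cdkn1c, -0.52 with Kcnq1, -0.45 with Slc22a18 and -0.52 with Phlda2. Without AN20 and GS9, left out after the values were seen, it was -0.34 with Cdkn1c and -0.42 with Kcnq1. For the same choice it was -0.25 with Slc22a18 and 0.34 with Phlda2. A negative r was not particular to the genes named as silenced. Over 16 lines it was -0.70 with Igf2 and -0.61 with H19, which lie in the other domain. It was -0.63 with Cd81, -0.62 with Tssc4 and 0.40 with Ascl2. Without AN20 and GS9 it was -0.66 with Igf2 and -0.64 with H19. Silencing was not tested. Within AN, r with Cdkn1c was -0.56, and without AN7 and AN20, the lines farthest from the median, it was 0.52 over 7 lines. Without the same lines r in AN was 0.28 with Kcnq1, 0.46 with Slc22a18 and 0.75 with Phlda2. Within AI it was -0.76, and -0.53 without GS4 and GS9. The negative relations in AN thus rest on AN7 and AN20.

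Kcnq1 itself was near the lower end of the table. It was listed at 0 in AN20, AN2 and GS9, and its highest value was 0.0492 FPKM in AI10. Its AN F values were 0.0285 in AN15, 0.0270 in AN9, 0.0145 in AN1 and 0 in AN20, and its AN P values ranged from 0 to 0.0381 FPKM. In AI F it was at 0.0146 to 0.0492 FPKM, and in AI P it was at 0.0351 in AI9 and 0.0115 in GS4 and was listed at 0 in GS9. The exact permutation p was 0.683 for AN F against AN P and 0.229 for AI F against AI P. At the relative depth of each line, the values lay at 0 or at a few multiples of the AN1 value of 0.0145 FPKM. Few reads thus lie behind them, and differences and relations of Kcnq1 carry little weight.

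Ascl2, a transcription factor of the trophoblast, was below 0.8 FPKM in every line. In AN F it was at 0.704 FPKM in AN9, 0.439 in AN20, 0.428 in AN15 and 0.262 in AN1, and in AN P it ranged from 0.230 in AN3 to 0.522 in AN7. In AI F it was at 0.786 in AI7, 0.616 in AI3, 0.303 in GS32 and 0.247 in AI10, and in AI P at 0.692 in GS4, 0.513 in GS9 and 0.446 in AI9. The groups overlapped, and the exact permutation p was 0.381 for the AN lines and 0.686 for the AI lines. Its r was -0.63 with H19 and -0.64 with Igf2.

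Cd81 and Tssc4, neighbours at the border of the Kcnq1 domain, varied less. Cd81, a tetraspanin of the cell membrane, ranged from 82.0 FPKM in AN20 to 171 FPKM in GS32. In AN F it was at 139 FPKM in AN1, 133 in AN15, 91.2 in AN9 and 82.0 in AN20, and in AN P at 114 to 149 FPKM. AN9 and AN20 lay below every AN P line, and the difference was -0.23 (SE 0.16, 95% interval -0.60 to 0.14; limma, adjusted p = 0.644). In AI F, Cd81 was at 118 to 171 FPKM and in AI P at 118 to 140 FPKM, with a difference of 0.18 (SE 0.14, 95% interval -0.15 to 0.52).

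Tssc4 was at 24.4 FPKM in AN1, 23.1 in AN15, 16.2 in AN9 and 14.0 in AN20, whereas the 5 AN P lines lay close together, at 21.6 to 24.2 FPKM. In AI F it was at 18.6 to 26.7 FPKM, and in AI P at 20.5 in GS4, 20.3 in AI9 and 13.9 in GS9. The differences were -0.23 (SE 0.15) in AN and 0.24 (SE 0.18) in AI on the log2 scale, with limma adjusted p of 0.638 and 0.559. AN9 and AN20 were the 2 lowest AN lines for both Cd81 and Tssc4.

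Counted over the cluster, 0 of the 8 tested genes passed an adjusted p of 0.05 in AN F against AN P, where 0% of all tested genes did, and 1 of 8 (H19, lower in AN F) had an unadjusted p under 0.05, against 6.01% of all. In AI F against AI P, 0 of 8 passed, against 0% of all, and 1 of 8 (Igf2, higher in AI F) had an unadjusted p under 0.05, against 7.77% of all. The groups did not overlap for 0 of 8 genes in AN, against 1.3% of all tested genes, and for 1 of 8 (Slc22a18) in AI, against 4.88%. For the difference between the AI and AN effects, 0 of 8 passed the adjusted threshold, against 0% of all, and 2 of 8 (H19 and Igf2) had an unadjusted p under 0.05, against 16.6% of all. A p above the threshold does not show that the levels were equal. The intervals allow for Phlda2 in AI, for example, a log2 difference from -0.91 to 1.33.

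The AN lines as a whole were compared with the AI lines in a fit of all 4 groups, which weighs F and P equally. Again 0 of 8 genes passed the adjusted threshold, against 0% of all tested genes, and 0 of 8 had an unadjusted p under 0.05, against 3.52%. H19 had a mean of 202 ± 70.2 FPKM in AN (SD, n = 9) and 196 ± 76.8 FPKM in AI (SD, n = 7), a log2 difference of 0.11 (SE 0.23, 95% interval -0.38 to 0.60). Igf2 had 98.5 ± 26.4 FPKM in AN and 103 ± 57.0 FPKM in AI, with a log2 difference of 0.17 (SE 0.27, 95% interval -0.39 to 0.74). The FPKM means of Igf2 thus put AN below AI, whereas the log2 means put AN above AI. Cdkn1c was at 18.2 ± 8.03 FPKM in AN and 25.8 ± 11.2 FPKM in AI, a difference of -0.37 (SE 0.31, 95% interval -1.03 to 0.29), and Phlda2 at 26.5 ± 7.93 and 36.5 ± 16.2 FPKM, a difference of -0.35 (SE 0.28, 95% interval -0.94 to 0.24).

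The tested genes around the cluster had negative but small differences in AN. Of 24 genes listed as neighbours of the cluster or lying within it, 14 were tested, and the list left out R74862 and Igf2as, which lie within it. Art5, which was below the filter, turned out to lie elsewhere on chromosome 7. In AN, 0 had an unadjusted p under 0.05, and in AI 1 did, Osbpl5, a lipid transfer protein beyond Phlda2, with a difference of 0.85 (SE 0.35). Of all tested genes, 6.01% had such a p in AN and 7.77% in AI. The difference was positive for 0 of 14 in AN and for 8 of 14 in AI, and its median was -0.20 in AN and 0.02 in AI, against -0.01 and -0.04 over all genes tested. For the difference of effects, 4 of 14 had an unadjusted p under 0.05, against 16.6% of all tested genes, all positive, namely Osbpl5 (1.15), Lsp1 (1.11), Tnfrsf23 (0.77) and Ctsd (0.60), a lysosomal protease and the neighbour with the highest mean level.

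Genes through which IGF2 acts were listed as an IGF pathway of 18 genes besides Igf2, of which 15 were tested and 0 passed the adjusted threshold. In AN F, Igfbp6, which binds IGF2 with preference, had a difference of -0.59 (SE 0.16) and was the only one with an unadjusted p under 0.05. In AI F, Igfbp5 with 0.99 (SE 0.32) and Irs1, the docking protein of the receptor, with 0.51 (SE 0.20) were higher and Igfbp2 with -0.50 (SE 0.16) was lower at an unadjusted p under 0.05. Of all tested genes, 6.01% had such a p in AN and 7.77% in AI. For the difference of effects, Igfbp6 (1.16), Igfbp5 (1.09) and Irs1 (0.56) had an unadjusted p under 0.05, which is 3 of 15 against 16.6% of all. The median difference was -0.08 in AN and 0.51 in AI. In AI 13 of 15 had a positive difference, among them Pappa (0.90) and Irs2 (0.52), which are not IGF binding proteins. The IGF binding proteins are also made by fibroblasts, and the part of fibroblasts in these differences was not tested.

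Imprinted genes elsewhere in the genome were represented by 30 genes, of which 25 were tested and 0 passed the adjusted threshold. At an unadjusted p under 0.05, 2 were higher and 1 was lower in AN F, Grb10 (0.95), Zdbf2 (0.42) and Zrsr1 (-0.43), and 5 were higher and 1 was lower in AI F, Grb10 (1.56), Rian (1.19), Meg3 (1.17), Rtl1 (0.62), Dlk1 (0.58) and Zrsr1 (-0.48). Of all tested genes, 6.01% had such a p in AN and 7.77% in AI. In AN against AI, 5 of 25 had such a p, against 3.52% of all. They were higher in AN, namely Nnat (0.82), Rian (0.79), Meg3 (0.78), Mcts2 (0.40) and Impact (0.34). For the difference of effects, 5 of 25 had an unadjusted p under 0.05, against 16.6% of all, namely Meg3 (1.41), Rian (1.36), Dlk1 (0.89), Rtl1 (0.84) and Airn (0.56). In the same RNA-seq libraries, the study called Grb10 upregulated in both AN F and AI F with Cuffdiff. It also measured some of these genes by quantitative PCR. Among 5 tested cyclin-dependent kinase inhibitors other than Cdkn1c, Cdkn2b (0.86) and Cdkn1a (0.56) had an unadjusted p under 0.05 in AI, both higher in AI F, and 0 did in AN. The shares of all tested genes were 7.77% in AI and 6.01% in AN. For the difference of effects, Cdkn2b (1.33), Cdkn1a (0.95) and Cdkn2a (0.75) had an unadjusted p under 0.05, against 16.6% of all.

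Among 22 factors listed for imprint control, 0 passed the adjusted threshold. The list held DNA methyltransferases and KRAB zinc finger partners, and also Tet1 and Tet2, which do not set or keep imprints. In AN, 20 of 22 had a positive difference, with a median of 0.19 against -0.01 over all genes tested. Smchd1, which acts in silencing of imprinted clusters, with 0.37 (SE 0.13), and Arid4b with 0.22 (SE 0.10) had an unadjusted p under 0.05, against 6.01% of all. In AI, 7 of 22 were positive, with a median of -0.11, and 0 had an unadjusted p under 0.05, against 7.77% of all. For the difference of effects, Zfp57, which protects imprints from demethylation, was at -0.81 (SE 0.37), Arid4a at -0.46 (SE 0.18), Ezh2 at -0.40 (SE 0.18) and Arid4b at -0.34 (SE 0.15), each with an unadjusted p under 0.05. These 4 of 22 are near the 16.6% of all tested genes. In AN against AI, Dnmt1, the maintenance methyltransferase, was at -0.20 (SE 0.09). It was the only 1 of 22 with an unadjusted p under 0.05 there, against 3.52% of all.

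Markers of other cell types were examined beside the cluster, because H19, Igf2, Cdkn1c and Phlda2 are strongly expressed in extraembryonic and mesenchymal tissue. Of 12 extraembryonic endoderm markers 7 were tested, with a summed level of 418 to 840 FPKM in AI F and 279 to 651 FPKM in AI P, and Col4a1, a basement membrane collagen that fibroblasts also make, had an AI difference of 1.06 (SE 0.45). For the difference of effects, which H19 and Igf2 passed at an unadjusted p under 0.05, 5 of the 7 had an unadjusted p under 0.05, against 16.6% of all tested genes. All were positive, namely Col4a1 (1.31), Sparc (1.04), Gata6 (0.65), Dab2 (0.60) and Gata4 (0.43). Of the others tested, Foxa2 was at 0.43 and Lama1 at -0.38. Sparc had a mean of 474 FPKM over the 16 lines, Col4a1 of 44.2 FPKM and Dab2 of 3.69 FPKM, so the summed level was mostly that of Sparc. Of the defining markers, Gata4 had a mean of 0.939 FPKM and Gata6 of 0.949 FPKM, Ttr was listed at 0 in 15 lines and Afp in 7. Of 10 trophoblast markers 7 were tested, led by Krt8 and Krt18, and 0 had an unadjusted p under 0.05 in any comparison. The shares of all tested genes were 6.01% in AN, 7.77% in AI, 3.52% in AN against AI and 16.6% for the difference of effects. In AN6, the line with the highest H19, the trophoblast markers summed to 1178 FPKM, against 36.9 to 317 FPKM in the other lines. Of 10 pluripotency markers 9 were tested, and in AI F Klf2 was at -0.81 (SE 0.29) and Tdgf1 at -0.71 (SE 0.25) relative to AI P. These genes, at -0.92 and -0.67 for the difference of effects, had an unadjusted p under 0.05 in both comparisons. Over all tested genes, 7.77% did in AI and 16.6% for the difference of effects. In AI 0 of 9 markers had a positive difference, with a median of -0.42, and in AN 7 of 9 did, with a median of 0.11. For the difference of effects 0 of 9 did, with a median of -0.50. The list mean was 8.08 in GS4 and 7.82 in GS9, the highest values of all lines, and 7.02 in AN6, the lowest. Pou5f1 was at 615 to 1222 FPKM, Nanog at 47.7 to 131 FPKM and Sox2 at 153 to 284 FPKM, so every line carried the markers of a pluripotent stem cell. The part of extraembryonic cells in the levels of H19, Igf2, Cdkn1c and Phlda2 was not tested. For fibroblasts, Phlda2 had an r of 0.17 with the marker mean over 16 lines (permutation p = 0.518), and with that mean as a covariate its difference was 0.05 in AI and 0.26 in AN.

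The genes most like a member over the 16 lines were sought among all other tested genes by Pearson r, as a description. For H19 they were Aig1 (0.94), Gabarapl1 (0.92) and Pgd (0.92). For Igf2 they were Parva (0.97), an adaptor of focal adhesions, Thy1 (0.97), a surface protein that is in the fibroblast list, and Ncs1 (0.97). For Cdkn1c they were Pygb (0.85), Zmiz1 (0.84) and Snd1 (0.82), and for Phlda2 they were Tle1 (0.84), Zbtb17 (0.81) and 2900010M23Rik (0.80). The closest genes of Igf2 were thus at a higher r than those of Cdkn1c and Phlda2.

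Read counts were not analysed here, so the reads behind most values are unknown, and the step between the lowest values gave a depth relative to AN1 of 0.961 to 1.26. The FPKM of all genes summed to 661973 to 963434 per line, with GS9 highest, and the lowest correlation between 2 lines was 0.929. No 2 lines held identical values.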

How the data were processed

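RNA-seq was performed on 16 lines with 1 library each. According to the study's methods and the submitters' processing notes, the authors mapped single-end reads of 50 bases to mm9 with TopHat2 2.1.0 and computed FPKM values per gene name with Cufflinks 2.2.1. HTSeq is also named, without a role. The deposited FPKM values were used as they are, and their library normalization and annotation source are not given in the sources used here. No statement on separate cultures of a line was found, and p-values measure the spread between lines.

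Values were analysed as log2(FPKM + 1), so differences of low genes are understated. The 13185 genes with a mean of at least 0.5 FPKM were fitted with limma (version 3.58.1, under R version 4.3.3, trend in the prior variance), the 9 AN and the 7 AI lines separately for F minus P and all 16 lines for AN minus AI and for the difference of effects. P-values of limma were adjusted over all tested genes by the Benjamini-Hochberg method, and adjusted exact p over the 40 exact tests of the members. The authors' comparison tool, Cuffdiff, needs reads and was not run. Exact two-sided permutation tests (Python 3.11.15, scipy 1.17.1) took p as 2 times the smaller tail over 126 splits in AN and 35 in AI, and 100000 permutations were drawn for correlations over 16 lines. The fit was tested on simulated data. The members, the gene lists and the tests were chosen with earlier results of these data known. Named were all members, list genes with an unadjusted p under 0.05 (otherwise the most abundant), and the 3 genes most like H19, Igf2, Cdkn1c and Phlda2.

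The settings changed in turn were the pseudocount (0.1), the filter (5 FPKM or none), the scaling (quantile or median-ratio), the prior (robust), passage, derivation or the fibroblast marker mean as a term, a fit of all lines, the new lines alone, an unadjusted p, and leaving out each line. Leaving out lines for the marker mean, and AN20 and GS9 for correlations between members, was added after the data were seen. Coordinates are from GENCODE vM1 (mm9), upstream sequence from NCBIM37, and promoters and microRNAs from RefSeq (GRCm38.p6). Protein sequences and methylation were not analysed here.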

Additional observations from a re-analysis of the deposited data

Results flagged for a closer look

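The F to P difference had opposite signs in AI and AN for H19 and Igf2. The difference of effects was 1.56 on the log2 scale for H19 (exact permutation p = 0.00771) and 1.56 for Igf2 (exact permutation p = 0.0431), with AI F above AI P and AN F below AN P on average. These were the 2 of 40 exact tests over the members with p under 0.05. Adjusted over the 40, the exact permutation p was 0.308 for H19 and 0.457 for Igf2. The limma adjusted p was 0.290 for both, and 16.6% of all tested genes had an unadjusted p under 0.05 for this difference. The list mean of the fibroblast markers had the same signs, 0.93 in AI and -0.26 in AN, and with it as a covariate the values were 1.18 for H19 and 0.28 for Igf2. Without the earlier AI lines they were 1.24 for H19 and 0.22 for Igf2, and with derivation as a term they were 1.62 and 1.41. Of 7 tested extraembryonic endoderm markers, 5 had a positive difference of effects at an unadjusted p under 0.05, whereas Lama1 was at -0.38. The part of these markers in the result was not tested.

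Slc22a18 stood apart in AN3, at 0.967 FPKM, from the other 4 AN P lines, which lay between 0.527 and 0.633 FPKM. Of 30 groups of lines tested for a value this far from the others it was the only 1, and chance alone gives about 1.5.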

How the results depend on the processing

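Of 696 alternative values of the members' log2 differences, 664 kept direction and side of the adjusted threshold, 31 had the other direction, and 1 passed the threshold, that of Igf2 between the AI and AN effects without AI9 (2.12, adjusted p = 0.0309). The causes were not tested. With the fibroblast marker mean as a covariate, the sign changed for Slc22a18 in AN (0.0531), Cd81 in AI (-0.0411), and Cdkn1c (-0.0542) and Phlda2 (-0.225) in the difference of effects. Among the newly derived AI lines, with AI9 as the lone P line assumed to vary like the others, it changed for Igf2 (-0.16), Cd81 (-0.0388) and Kcnq1ot1 (0.0912) in AI, Igf2 (-0.29) and Tssc4 (-0.0181) in AN minus AI, and Phlda2 (-0.0802) in the difference of effects. Passage as a covariate gave -0.0815 for H19 in AN minus AI.

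Leaving out each line gave these ranges where a sign changed. In AN F minus AN P they were -0.0284 to 0.227 for Kcnq1ot1, -0.0991 to 0.570 for Cdkn1c and -0.123 to 0.0904 for Slc22a18. In AI F minus AI P it was -0.39 to 0.75 for Phlda2. In AN minus AI they were -0.12 to 0.29 for H19, -0.0212 to 0.455 for Igf2, -0.0206 to 0.134 for Tssc4, -0.0747 to 0.0896 for Kcnq1ot1 and -0.0694 to 0.0371 for Slc22a18, and in the difference of effects -0.56 to 0.58 for Phlda2. The r of the fibroblast mean with H19 ranged from 0.43 to 0.75.

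Over all genes, 0 passed the adjusted threshold in each comparison. Leaving out a line gave 0 to 1 in AN, 0 to 5 in AI, 0 to 1 in AN minus AI and 0 to 651 (without AI9) in the difference of effects, where 0 to 1 members passed. Without the earlier AI lines the counts were 21 in AI, 9 in AN minus AI and 7 in the difference of effects, and derivation as a term gave 1 in AN minus AI. At an unadjusted p they were 792, 1025, 464 and 2194, with 1, 1, 0 and 2 members. No paired analysis was possible because the lines carry no shared replicate numbers. Without read counts, differences of Kcnq1, Ascl2 and Slc22a18 are the least certain.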
